A study of Mus musculus with 6 samples.

Results

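The genes described here are Yap1 and Wwtr1, which encode the transcriptional coactivators YAP and TAZ, Tead1, which encodes a DNA-binding partner of both, and 7 genes known as their targets or regulators: Ccn1, Ccn2, Ankrd1, Amotl1, Amotl2, Ajuba and Lats2. These 10 genes were listed by symbol from what is known of the pathway, but with earlier results of these data known. All 10 were found among the 40879 gene symbols of each library. The cultures, labelled as primary stellate cells of the liver from male mice of wild-type genotype, were given APB-R3, an engineered interleukin-18 binding protein (IL-18BP), or vehicle, and RNA was taken after 24 hours. There were 3 APB-R3 and 3 vehicle libraries, and no strain or age was given for the mice. The labels disagree on the unit of the dose of 150, which is µg/ml in the design text but µg/kg in the protocol of each sample. No label ties the replicates to separate mice or dishes, so the p-values cover only how far these samples spread, possibly for technical reasons.

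YAP and TAZ carry no DNA-binding domain and reach promoters and enhancers through the TEAD proteins. The Hippo kinase cascade, in which MST kinases activate the LATS kinases, phosphorylates both coactivators and holds them in the cytoplasm, whereas a stiff matrix, cell spreading and actin tension let them enter the nucleus. Stellate cells on a stiff surface are known for nuclear YAP, and Ccn2, Ccn1 and Ankrd1 are the usual readouts of it. Because the control of YAP and TAZ acts largely on the proteins, transcript levels of Yap1 and Wwtr1 do not report the activity of their products.

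The TEAD element was looked for in the promoters because it is the DNA sequence through which the coactivators reach their targets. RefSeq promoters (GRCm38.p6, an older build than the GRCm39 of the counts) matched 8 of the 10 genes by symbol, and those of Ccn2 and Tead1 were not analysed here. The search covered the 250 bases before each annotated start for the letters GGAATG on either strand, which read CATTCC when the element lies on the other strand. Promoters of 6 of the 8 genes held the element, against 14.4% of all 27025 genes with a promoter in that table. The genes were listed as known targets or regulators of the pathway, so this contrast may follow from that choice and was not tested. Of 20 further YAP target genes described below, 12 matched a promoter and 3 of these held the element. Ankrd1 and Ajuba held 2 each, and 1.02% of all 32851 promoter windows held 2 or more. In the following sequences, chosen as the pair with 2 elements, a secreted target with 1 and TAZ itself, capitals mark the TEAD element.
Ankrd1, chr19:36119845-36120094, minus strand: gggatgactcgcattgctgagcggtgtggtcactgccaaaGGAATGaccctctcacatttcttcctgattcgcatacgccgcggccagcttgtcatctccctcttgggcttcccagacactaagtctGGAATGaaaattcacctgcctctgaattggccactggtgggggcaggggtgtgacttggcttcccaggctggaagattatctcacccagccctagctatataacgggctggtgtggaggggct
Ajuba, chr14:54577662-54577911, minus strand: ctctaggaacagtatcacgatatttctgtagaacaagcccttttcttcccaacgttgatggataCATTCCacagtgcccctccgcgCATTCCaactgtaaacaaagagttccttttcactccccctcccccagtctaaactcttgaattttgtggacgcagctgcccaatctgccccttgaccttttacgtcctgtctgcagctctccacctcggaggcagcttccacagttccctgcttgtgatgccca
Ccn1, chr3:145649986-145650235, minus strand: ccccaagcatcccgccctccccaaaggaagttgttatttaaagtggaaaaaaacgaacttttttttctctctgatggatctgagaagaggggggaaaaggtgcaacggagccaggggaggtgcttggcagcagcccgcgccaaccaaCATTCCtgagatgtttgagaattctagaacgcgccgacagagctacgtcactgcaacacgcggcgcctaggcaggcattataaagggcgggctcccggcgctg
Wwtr1, chr3:57575911-57576160, minus strand: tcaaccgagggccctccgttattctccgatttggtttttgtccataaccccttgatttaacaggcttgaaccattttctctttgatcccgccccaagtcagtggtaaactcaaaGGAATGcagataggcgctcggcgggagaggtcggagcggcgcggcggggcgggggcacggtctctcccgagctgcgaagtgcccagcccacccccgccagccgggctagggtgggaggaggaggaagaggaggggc

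In the Ankrd1 promoter the elements began 210 and 123 bases before the start. In the Ajuba promoter they began 186 and 164 bases before it, both on the other strand. The single elements of Ccn1, Yap1 and Amotl2 began 103, 141 and 65 bases before their starts. Wwtr1 has 2 annotated starts close together, and its element began 136 bases before the outer start, used for the sequence above, and 170 before the inner. No GGAATG stood in the windows of Amotl1 or Lats2. The AP-1 element TGANTCA, which joins TEAD sites at many YAP-bound enhancers, stood in none of the 8 genes' windows and in 7.82% of all genes. These matches are letters in a window, and binding was not measured.

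**Figure D1:**
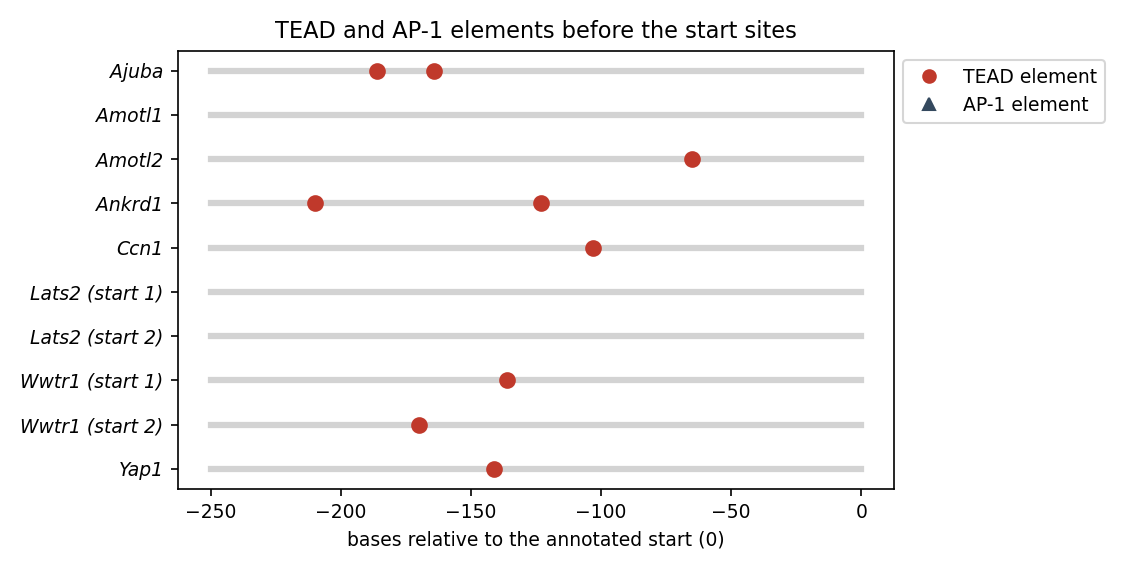
Positions of TEAD elements (circles) and AP-1 elements (triangles) in the 250 bases before the annotated starts of 8 members, with Lats2 and Wwtr1 shown at 2 starts each; the x axis is bases relative to the start. Circles stand in the windows of Ajuba, Amotl2, Ankrd1, Ccn1, Wwtr1 and Yap1, and no triangle appears.

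Libraries held 8323809 to 10792531 counts in the APB-R3 group and 10431310 to 10573916 in the vehicle group. Levels are given as CPM, counts scaled to library size with TMM factors, and a gene passed the comparison when its adjusted p in edgeR's quasi-likelihood test was under 0.05. The label names stellate cells, but by sum and by median the liver endothelial markers stood far above both stellate lists in both groups. The 10 quiescent stellate markers summed to 456 to 495 CPM in APB-R3 and 420 to 502 CPM in vehicle, whereas the 10 liver endothelial markers, all of them counted, summed to 5534 to 6163 CPM in APB-R3 and 5789 to 6462 CPM in vehicle. The median marker stood at 9.80 CPM in the quiescent stellate list and at 379 CPM in the endothelial list. In the activated stellate and contractile list it stood at 47.5 CPM. Over all 6 libraries the stellate genes Lrat, Des and Reln averaged 1.68, 4.71 and 11.5 CPM, and the matrix gene Dcn, at 308 CPM, supplied most of that list's sum. The endothelial genes Lyve1 and Cdh5 averaged 1715 and 1148 CPM. Gene by gene the lists overlapped. The stellate genes Ecm1 and Hgf averaged 72.8 and 46.6 CPM, and the endothelial genes Clec4g and Tek 51.6 and 47.7 CPM. Endothelial cells also use YAP and TAZ. All levels are therefore those of whole cultures, and fewer cells of a type and less RNA per cell cannot be told apart. The 10 activated stellate and contractile markers summed to 616 to 753 CPM in APB-R3 and 736 to 852 CPM in vehicle. Tagln, Col1a1 and Acta2 averaged 237, 139 and 114 CPM over the 6 libraries. Acta2 averaged 97.2 CPM in APB-R3 and 131 CPM in vehicle, a log2 fold change of -0.43, APB-R3 over vehicle. Its edgeR unadjusted p was 8.0e-04 and its adjusted p 0.9998. Col1a2 and Postn were also lower, at -0.25 and -0.52 (unadjusted p = 0.0339 and 0.0412 in edgeR). Cnn1, Col3a1, Timp1 and Lox had log2 fold changes above 0. The 10 macrophage markers summed to 327 to 430 CPM in APB-R3 and 270 to 363 CPM in vehicle. Hepatocyte markers summed to 6.40 to 14.9 CPM in APB-R3 and 9.19 to 84.3 CPM in vehicle, with the highest value in vehicle replicate 2, and Tat averaged 0 CPM in APB-R3 and 0.13 CPM in vehicle. Cholangiocyte markers summed to 53.8 to 75.2 CPM in APB-R3 and 55.5 to 62.3 CPM in vehicle. Mesothelial and portal fibroblast markers summed to 91.7 to 114 CPM in APB-R3 and 106 to 122 CPM in vehicle. The part of these cell types in the results below was not tested.

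All 10 genes were well above the count filter and were tested among 12776 genes. None of the 10 passed, and edgeR's test called 0 of all genes tested, which is 0%. At an unadjusted p under 0.05 there were also 0 of the 10, beside 425 of all genes, or 3.33%. DESeq2 and limma-voom also called 0 genes, none of the 10 among them, with 376 and 427 genes of all at an unadjusted p under 0.05. In edgeR the adjusted p was 0.9998 for each of the 10. Log2 fold changes, APB-R3 over vehicle, ran from -0.21 for Tead1 to 0.16 for Ankrd1, and the unadjusted 95% interval of each included 0. No interval went below -0.42 or above 0.43. The signs were 8 below 0 and 2 above, where 49.3% of all genes were below 0. They became 7 and 3 with DESeq2 size factors, library size only, a filter of 5 CPM in 3 libraries or the DESeq2 test, where Amotl2 turned. Leaving out APB-R3 replicate 1 or 2, or vehicle replicate 1 or 3, also gave 7 and 3. So did leaving out APB-R3 replicate 1 and vehicle replicate 2 together, and without vehicle replicate 2 alone they were 5 and 5. The median over the 10 was -0.02, beside 0.003 over all genes tested. Leaving out a single APB-R3 library, replicate 1, 2 or 3, moved it to -0.056, -0.027 and -0.068, and leaving out vehicle replicate 1, 2 or 3 to -0.038, -0.011 and -0.043.

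**Figure D2:**
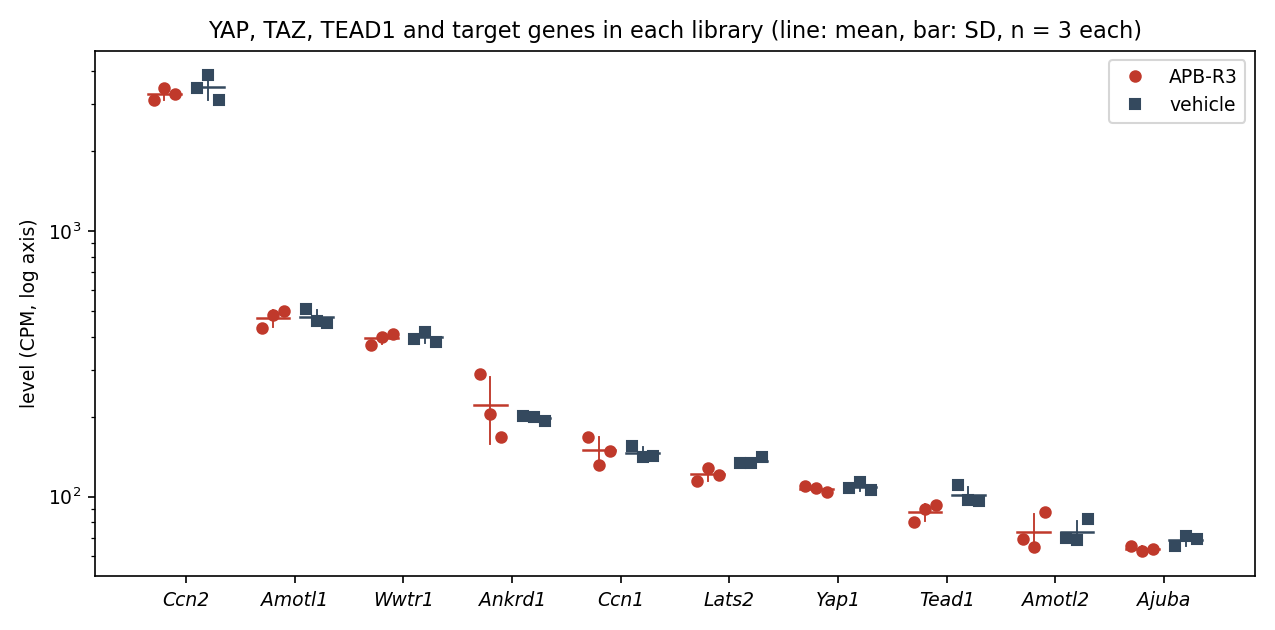
Level of each gene (CPM, log axis) in the 3 APB-R3 libraries (circles) and the 3 vehicle libraries (squares), with the group mean (horizontal line) and SD (vertical bar). The groups lie over each other except in Lats2 and Tead1, and the Ankrd1 point at 289 CPM is APB-R3 replicate 1.

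The coactivators had steady transcript levels. Wwtr1, encoding TAZ, had 373, 399 and 410 CPM in APB-R3 replicates 1 to 3 and 391, 418 and 383 CPM in vehicle replicates 1 to 3. Yap1 had 110, 108 and 104 CPM in APB-R3 and 107, 114 and 106 CPM in vehicle. Both groups overlapped in both genes. The log2 fold change was -0.01 (SE 0.09) for Wwtr1, with a 95% interval from -0.19 to 0.17, and -0.03 (SE 0.10) for Yap1, with an interval from -0.23 to 0.17. Yap1 was the steadiest of the 10, with its highest library at 1.09 times its lowest. Its coefficient of variation was 2.66% in APB-R3 and 3.74% in vehicle, where counting alone gives about 3.02%.

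Wwtr1 had more counts than Yap1 in every library. Whether the 3' ends of both genes were captured equally well was not tested. QuantSeq counts transcripts by their 3' ends whatever their length, so CPM of different genes were set side by side without division by length. The ratio of Wwtr1 to Yap1 counts was 3.40, 3.69 and 3.94 in APB-R3 and 3.64, 3.68 and 3.61 in vehicle. It averaged 3.68 ± 0.269 in APB-R3 and 3.64 ± 0.0326 in vehicle (SD, n = 3 each), and a two-sided exact permutation test gave p = 0.70. This is 1 of 5 ratios between members that were compared after the values were seen, and each had an adjusted p of 0.875 or 1. With 3 libraries against 3 the smallest p that test can give is 0.10.

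Tead1 had the lowest log2 fold change of the 10 and did not pass. It had 80.4, 90.0 and 92.8 CPM in APB-R3 and 110, 97.3 and 96.2 CPM in vehicle. Every APB-R3 library lay below every vehicle library, with the closest pair at 92.8 CPM in APB-R3 and 96.2 CPM in vehicle. Its means were 87.7 ± 6.47 CPM in APB-R3 and 101 ± 7.92 CPM in vehicle (SD, n = 3 each). The log2 fold change was -0.21 (SE 0.10; 95% interval -0.42 to 0.01; edgeR adjusted p = 0.9998, unadjusted p = 0.0621), a difference of -13.3%. It ran from -0.25 to -0.14 over all alternatives. Set against Yap1 in the same library, which removes the scaling, the Tead1 to Yap1 ratio was 0.734, 0.833 and 0.892 in APB-R3 and 1.03, 0.855 and 0.907 in vehicle. These ranges overlapped (exact permutation p = 0.20).

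Tead1 supplied most of the counts of its family, which has 4 genes. Its share of TEAD counts ran from 69.4% to 81.4% over the 6 libraries, and that of Tead2 from 17.0% to 28.9%. Tead2 had 33.5, 29.1 and 28.1 CPM in APB-R3 and 27.4, 20.3 and 29.2 CPM in vehicle, a log2 fold change of 0.24 (SE 0.16). Tead4 averaged 1.60 ± 0.442 CPM in APB-R3 and 1.43 ± 0.244 CPM in vehicle. Tead3, with 37 counts over all libraries, was below the count filter.

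Lats2, the Hippo kinase that phosphorylates YAP and TAZ and is itself a YAP target in a feedback loop, also had separate groups. It had 115, 128 and 120 CPM in APB-R3 and 134, 134 and 141 CPM in vehicle. All 3 APB-R3 libraries thus lay below the vehicle range. The log2 fold change was -0.17 (SE 0.10; 95% interval -0.36 to 0.03; edgeR adjusted p = 0.9998, unadjusted p = 0.0922), a difference of -11.0%, and it ran from -0.21 to -0.13 over all alternatives. Lats2 and Tead1 were the 2 of 10 genes whose groups did not overlap with APB-R3 lower, where 4.38% of all genes tested were so. With APB-R3 higher there were 0 of 10, beside 4.41% of all genes.

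Ccn2, the secreted matricellular protein CTGF and the best known YAP target in fibrosis, was by far the most abundant of the 10. It had 3111, 3447 and 3280 CPM in APB-R3 and 3456, 3871 and 3115 CPM in vehicle. The lowest libraries of the groups were nearly level, and vehicle replicate 2 stood highest. The means were 3279 ± 168 CPM in APB-R3 and 3481 ± 379 CPM in vehicle (SD, n = 3 each), a log2 fold change of -0.09 with a 95% interval from -0.27 to 0.09. Without vehicle replicate 2 the log2 fold change was 0.001. Ccn2 ranked 14 among the 12776 genes by mean level and made up 64.7% to 69.5% of the counts of the 10 genes in each library.

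Ccn1, the related secreted protein CYR61, had 168, 132 and 148 CPM in APB-R3 and 155, 141 and 142 CPM in vehicle. The vehicle libraries lay inside the range of the APB-R3 libraries. The log2 fold change was 0.03 (SE 0.10), with an interval from -0.18 to 0.25. Ccn2 counts were 18.5, 26.2 and 22.1 times those of Ccn1 in APB-R3 and 22.4, 27.4 and 21.9 times in vehicle (exact permutation p = 0.50).

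Ankrd1, a nuclear ankyrin repeat protein whose gene answers to stretch and to YAP, varied most between libraries. It had 289, 205 and 168 CPM in APB-R3 and 200, 199.8 and 192 CPM in vehicle. APB-R3 replicate 1 held the highest value and APB-R3 replicate 3 the lowest, with the vehicle libraries between them. The coefficient of variation was 28.2% in APB-R3 and 2.33% in vehicle, beside 2.19% from counting. The log2 fold change was 0.16 (SE 0.13; 95% interval -0.12 to 0.43), and leaving out APB-R3 replicate 1 gave -0.09, where leaving out APB-R3 replicate 3 gave 0.32. APB-R3 replicate 1 had the lowest total count and held Il1b, an inflammatory cytokine gene, at 36.7 CPM where the other libraries had 0.474 to 2.24 CPM. In the same library Ccn1 was at its highest, and Ccn2, Amotl1, Wwtr1, Lats2 and Tead1 were at their lowest, so the targets did not move together there. Without this library the log2 fold change of Ccn1 was -0.06.

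**Figure D3:**
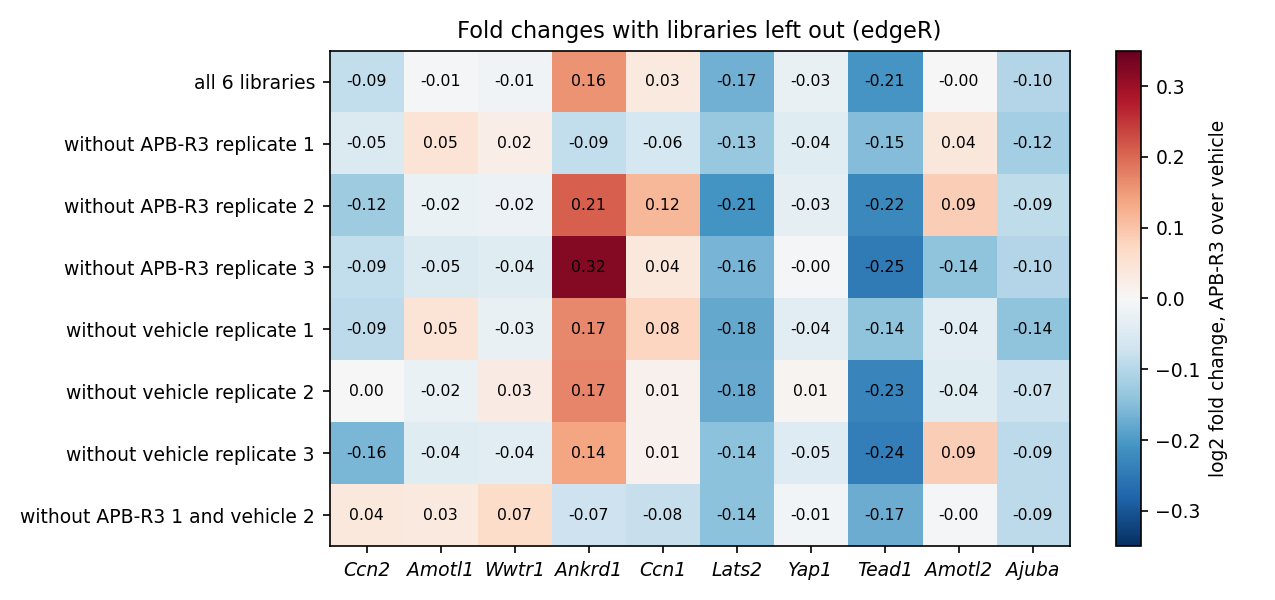
Log2 fold change, APB-R3 over vehicle, of each gene (columns) with all 6 libraries (top row) and with the named libraries left out (rows below); red is higher and blue lower in APB-R3. Lats2, Tead1 and Ajuba stay below 0 in each row, while Ankrd1 turns from 0.16 to -0.09 without APB-R3 replicate 1.

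The remaining genes encode scaffold proteins that bind Hippo components. Amotl1 and Amotl2 are angiomotin-like proteins that hold YAP and TAZ at junctions and in the cytoplasm, and Ajuba is a LIM protein that restrains the LATS kinases. Amotl1 had 431, 481 and 498 CPM in APB-R3 and 508, 459 and 449 CPM in vehicle. Amotl2 had 69.2, 64.7 and 87.3 CPM in APB-R3 and 70.1, 69.0 and 82.4 CPM in vehicle. The groups covered much the same range in both genes, with log2 fold changes of -0.01 (SE 0.09) and -0.001 (SE 0.12). Ajuba had 65.1, 62.5 and 63.8 CPM in APB-R3 and 65.1, 70.9 and 69.6 CPM in vehicle. Its groups met at 65.1 CPM, and its log2 fold change was -0.10 (SE 0.11; 95% interval -0.33 to 0.12).

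**Figure D4:**
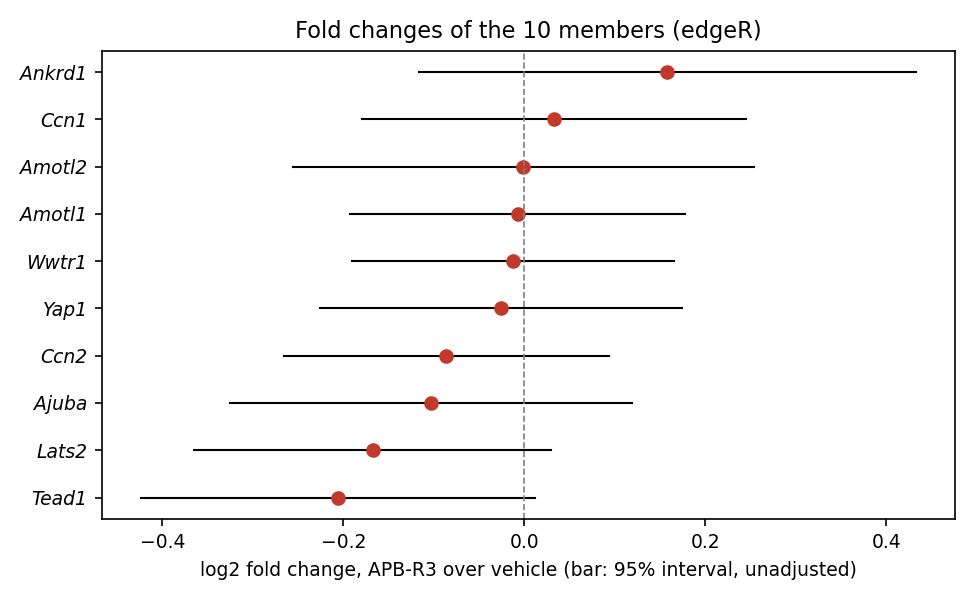
Log2 fold change, APB-R3 over vehicle, of the 10 genes (points) with its unadjusted 95% interval (bars) from edgeR. Each bar crosses 0, and the points run from -0.21 for Tead1 to 0.16 for Ankrd1.

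By mean level the order was Ccn2 (3380 CPM over the 6 libraries), Amotl1 (471), Wwtr1 (396), Ankrd1 (209), Ccn1 (148), Lats2 (129), Yap1 (108), Tead1 (94.5), Amotl2 (73.8) and Ajuba (66.2). The gap from Ccn2 to Amotl1 was 7.18-fold, and Amotl1 stood above Wwtr1, and Wwtr1 above Ankrd1, with no overlap of their ranges. The lowest Ankrd1 and the highest Ccn1 library both stood at 168 CPM, and the lowest Lats2 library at 115 CPM stood just above the highest Yap1 library at 114 CPM. The ranges of neighbours overlapped for Ccn1 and Lats2, Yap1 and Tead1, Tead1 and Amotl2, and Amotl2 and Ajuba. Within single libraries the order still held in 6 of 6 for each of these pairs except Yap1 and Tead1, and Amotl2 and Ajuba, where it held in 5. The least abundant, Ajuba, was above 76.7% of the genes tested.

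The other genes of the pathway were taken from 4 lists with 56 genes, of which 53 were tested and 0 passed. At an unadjusted p under 0.05 there were also 0 of 53, beside the 3.33% of all genes, and there were 4 when APB-R3 replicate 2 was left out, 3 when APB-R3 replicate 3 was, 1 when vehicle replicate 1 was and 2 with the replicate block. With no filter on low counts there was 1 of 56. Their log2 fold changes were below 0 in 32 and above 0 in 21, where 49.3% of all genes were below 0, with a median of -0.04. Leaving out a single APB-R3 library, replicate 1, 2 or 3, gave medians of -0.0092, -0.078 and -0.060. Leaving out a single vehicle library, replicate 1, 2 or 3, gave -0.025, -0.021 and -0.026. The median was 0.00091 with APB-R3 replicate 1 and vehicle replicate 2 both left out. All 53 had an edgeR adjusted p of 0.9998. The groups did not overlap in 2 of the 53 with APB-R3 higher, beside 4.41% of all genes tested. With APB-R3 lower there were 3 of 53, beside 4.38% of all genes.

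The core kinase cassette gave no call in 6 of 6 genes. Stk3 and Stk4 encode the MST kinases. Stk3 averaged 63.6 ± 4.51 CPM in APB-R3 and 61.8 ± 3.47 CPM in vehicle, and Stk4 averaged 42.4 ± 4.67 CPM in APB-R3 and 43.9 ± 3.48 CPM in vehicle (SD, n = 3 each here and below). Sav1, the scaffold that joins MST to LATS, had 34.8 to 35.1 CPM in APB-R3 and 29.3 to 33.0 CPM in vehicle, so that its groups did not overlap, at a log2 fold change of 0.16 (SE 0.13). Lats1 averaged 22.0 ± 4.29 CPM in APB-R3 and 22.1 ± 0.330 CPM in vehicle, well under the level of Lats2. Of the LATS cofactors, Mob1a averaged 151 ± 15.8 CPM in APB-R3 and 159 ± 14.2 CPM in vehicle, and Mob1b averaged 8.75 CPM in APB-R3 and 11.2 CPM in vehicle, at -0.35 (SE 0.24).

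Among 21 tested upstream regulators the median was -0.04. Map4k4, a kinase that acts on LATS beside the MST kinases, was the most abundant at 2564 ± 296 CPM in APB-R3 and 2640 ± 46.5 CPM in vehicle. Rassf1, a scaffold of the MST kinases, had the smallest p, with 119, 86.0 and 86.9 CPM in APB-R3 and 82.2, 86.1 and 78.1 CPM in vehicle. Its high value was again that of APB-R3 replicate 1, and its log2 fold change was 0.24 (SE 0.12). Amot, the angiomotin after which Amotl1 and Amotl2 are named, had 0.19 (SE 0.14). On the lower side were the junction protein gene Tjp1 at -0.14 (SE 0.09) and the kinase gene Taok3 at -0.11 (SE 0.09).

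The 7 tested TEAD partners had a median of 0.15. Vgll3, a TEAD-binding cofactor of the vestigial-like family, had 18.4, 14.5 and 19.1 CPM in APB-R3 and 14.1, 12.2 and 13.7 CPM in vehicle. Its groups did not overlap, at 0.38 (SE 0.19; unadjusted p = 0.0590, edgeR adjusted p = 0.9998). Jun, a subunit of AP-1, had 227, 256 and 259 CPM in APB-R3 and 277, 273 and 270 CPM in vehicle, also without overlap, at -0.14 (SE 0.09). Vgll4, a TEAD-binding repressor, had -0.15 (SE 0.16).

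The 19 tested target genes outside the 10 had 15 log2 fold changes below 0 and 4 above, where 49.3% of all genes were below 0. Their median was -0.06, and none had an unadjusted p under 0.05 in edgeR. Rbms3, Gadd45a and Asap1 were among those below 0, at only -0.003, -0.01 and -0.02. All 19 were counted in the same 6 libraries, so their signs are not independent. Medians with libraries left out were given above for the 4 lists together, not for this list. Ccdc80, a matrix protein gene, had the smallest p, with 71.1, 68.8 and 74.4 CPM in APB-R3 and 81.2, 82.7 and 83.5 CPM in vehicle. The groups were apart, at -0.21 (SE 0.10; unadjusted p = 0.0564, edgeR adjusted p = 0.9998). Nuak2, a kinase gene, had 16.5, 16.7 and 13.5 CPM in APB-R3 and 16.7, 21.5 and 20.6 CPM in vehicle, at -0.33 (SE 0.18). The most abundant, the endothelin gene Edn1, averaged 1367 ± 174 CPM in APB-R3 and 1363 ± 55.8 CPM in vehicle. Igfbp3, a secreted binder of insulin-like growth factors, had 453 ± 43.9 CPM in APB-R3 and 418 ± 41.6 CPM in vehicle, at 0.12 (SE 0.10). Nt5e, the ectonucleotidase CD73, averaged 4.50 CPM in APB-R3 and 4.32 CPM in vehicle, at 0.06 (SE 0.45).

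**Figure D5:**
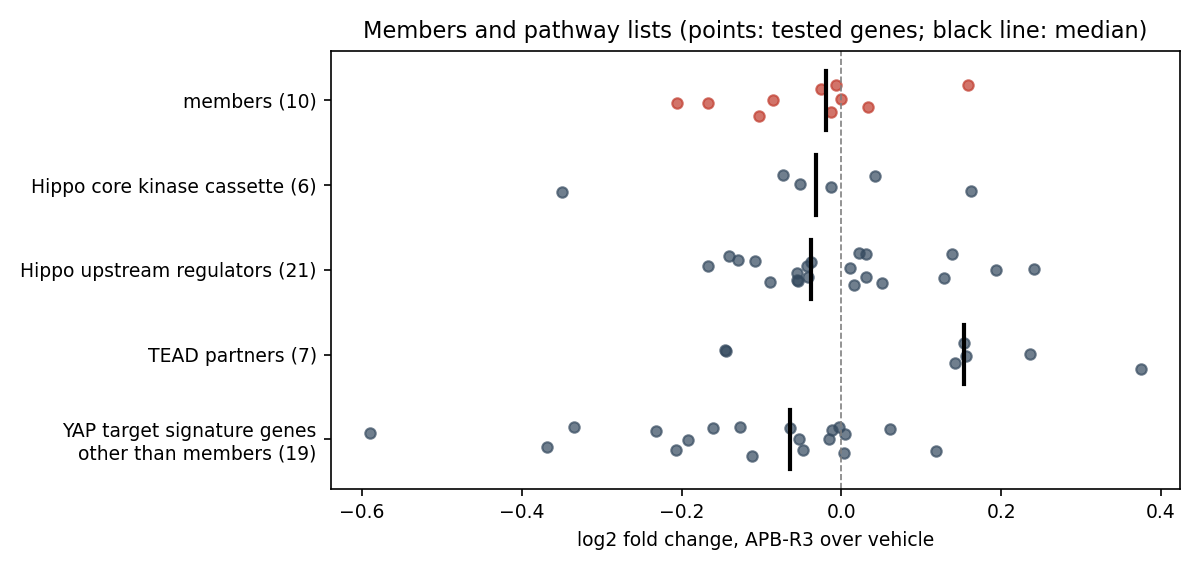
Log2 fold change, APB-R3 over vehicle, of the 10 members and of the tested genes of 4 pathway lists (points, with their number in brackets), with each list's median (black line). The medians run from -0.06 for the other target genes to 0.15 for the TEAD partners, and no gene shown passed the test.

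The genes whose profile over the 6 libraries lay closest were looked up by the root mean square difference of centred log2 CPM, among 6593 other genes of at least 20 CPM. For Ccn2 these were Rnf187 (0.020), Dnajc5 (0.024) and Spen (0.027), and for Ccn1 2200002D01Rik (0.024), Atp6v0d1 (0.025) and Cpt1a (0.025). For Yap1 they were Plec (0.012), Nfic (0.019) and Rpl23a (0.019), the last a gene with pseudogene copies whose count is uncertain. None of these 9 belongs to the 10 genes or to the 4 lists. By this measure genes that vary little come close to each other most easily.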

How the data were processed

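RNA from primary hepatic stellate cell cultures was counted in 3 APB-R3 and 3 vehicle libraries. Per the labels' protocols, 500 ng of Trizol-extracted RNA went into each Lexogen QuantSeq 3' library. Each deposited file lists raw read counts by gene symbol, as whole numbers without normalization. Per the submitters' processing notes, bcl2fastq 2.20.0.422, fastp, STAR and HTSeq were used with GRCm39; other versions, the annotation, the strand setting and the handling of molecular identifiers are not stated in these sources, so counting error is a lower limit of the technical error. The headers inside the files carry numbers 2 to 4 where the titles have 1 to 3, and the titles were followed.

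Counts were fitted in edgeR 4.0.16 (R 4.3.3) with filterByExpr (minimum count 10, minimum total 15), TMM factors, glmQLFit and glmQLFTest with treatment as the term, two-sided, with Benjamini-Hochberg adjustment over 12776 genes and a threshold of 0.05. Levels are CPM on TMM-scaled totals. Standard errors were the log2 fold change divided by the root of F. The functions were tested on simulated counts. No pair of libraries were copies (chi-square per degree of freedom of 5.54 to 13.6).

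The 10 genes and all lists were chosen with earlier results of these data known. Besides the 10, the text names for each list the most abundant gene and up to 2 genes with the smallest p per direction, every core kinase and TEAD gene, and the 3 closest profiles to Ccn1, Ccn2 and Yap1. Some genes that this rule names are left out of the text. Lrat, Des, Reln, Dcn, Ecm1, Hgf, Lyve1, Cdh5, Clec4g, Tek, Tat and Il1b were named after their values were seen. The same holds for Tagln, Col1a1, Acta2, Col1a2, Postn, Cnn1, Col3a1, Timp1, Lox, Rbms3, Gadd45a and Asap1. The alternatives were scaling by DESeq2 size factors or by library size only, either no filter or a filter of 5 CPM in 3 libraries, the tests of DESeq2 1.42.0 and limma-voom (limma 3.58.1), a replicate block, each library left out and, added after seeing the data, APB-R3 replicate 1 and vehicle replicate 2 left out together. In GENCODE M21 (GRCm38), exons of Ccn2, Yap1 and Lats2 overlap the predicted genes Gm15270, Gm20416 (both on the opposite strand) and Gm49361; Gm15270 had 0 counts. Motif searches in proteins, planned at the outset, were not run.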

Additional observations from a re-analysis of the deposited data

How the results depend on the processing

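In each of 14 alternatives, 0 of the 10 genes and 0 of the other pathway genes tested passed. The lowest adjusted p of the 10 was 0.902, for Ankrd1 and Tead1 without APB-R3 replicate 3, where both had an unadjusted p under 0.05. Over all genes the count of calls was 20 with no filter on low counts, and 0 to 1 with a library left out, the 1 being without vehicle replicate 3. The median of the 10 stayed below 0, from -0.068 without APB-R3 replicate 3 to -0.011 without vehicle replicate 2. Of 140 fold changes of single genes, 120 kept their sign and 20 turned, none past the threshold. With libraries left out, the log2 fold change ran from -0.051 to 0.049 for Amotl1, from -0.14 to 0.086 for Amotl2, from -0.086 to 0.32 for Ankrd1, from -0.080 to 0.12 for Ccn1, from -0.16 to 0.036 for Ccn2, from -0.042 to 0.065 for Wwtr1 and from -0.045 to 0.0095 for Yap1. The turns without APB-R3 replicate 1 were those of 5 genes (Amotl1 0.049, Amotl2 0.040, Ankrd1 -0.086, Ccn1 -0.061, Wwtr1 0.023), and another 5 came without both that library and vehicle replicate 2 (Amotl1 0.033, Ankrd1 -0.073, Ccn1 -0.080, Ccn2 0.036, Wwtr1 0.065). Without vehicle replicate 2, Ccn2 turned to 0.0013, Wwtr1 to 0.029 and Yap1 to 0.0095, and without vehicle replicate 1 Amotl1 turned to 0.048. Amotl2 turned to 0.086 without APB-R3 replicate 2 and 0.085 without vehicle replicate 3, and to 0.00089 with DESeq2 size factors, 0.0057 with library size only, 0.00012 with at least 5 CPM in 3 libraries and 0.00082 in DESeq2. The cause was not tested.

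The replicate numbers were not taken to pair the samples, because no label says that they do. Deviations from the group means correlated at 0.040, 0.046 and 0.067 between equal numbers and at -0.050 to -0.0048 between unequal ones. Each APB-R3 library thus correlated best with its own number, and whether equal numbers mark pairs was not tested. With the replicate block, 0 of the 10 genes and 0 of all genes passed, as without it, and the median of the 10 was -0.019. Genes at an unadjusted p under 0.05 in edgeR numbered 539 with the block and 425 without it. With 3 libraries a group, the unadjusted 95% interval of each of the 10 genes held 0, so neither direction was excluded for any of them. The outermost ends were -0.42 for Tead1 and 0.43 for Ankrd1 on the log2 scale. Other intervals were narrower, as for Wwtr1 from -0.19 to 0.17.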
